A study of Homo sapiens with 4 samples.

Results

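The class I antigen presentation genes examined here were HLA-B, HLA-C, HLA-E, HLA-F, B2M, TAP1, TAP2, TAPBP and NLRC5, taken by name from a list of 9 genes out of 20037 protein-coding genes. H3K27Ac, the acetylation of histone H3 at lysine 27 that marks active promoters and enhancers, was measured by ChIPmentation in MOLM13, an established human AML cell line with an MLL1 rearrangement. One library came from control cells, whose treatment label reads None while the treatment description names DMSO, and 1 library came from cells exposed to 500 nM of the Menin inhibitor SNDX-50469 for 16 h. The series' 2 input libraries were not used here. Each condition had a single library, so there is no replicate check, no test between conditions was possible, and each difference below compares these 2 libraries.

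Class I molecules display peptides from inside the cell to CD8+ T cells and, for some of them, to natural killer cells. A heavy chain, such as HLA-B, HLA-C, HLA-E or HLA-F, pairs with the light chain beta-2 microglobulin encoded by B2M. TAP1 and TAP2 form the transporter that carries peptides into the endoplasmic reticulum, and tapasin, encoded by TAPBP, holds the heavy chain at the transporter while a peptide is loaded. NLRC5 is the transactivator of class I genes and acts on their promoters together with the RFX, NF-Y and CREB/ATF factors, while interferons act through IRF factors and a distinct motif.

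Promoter sequences were available for 7 of the 9 genes in RefSeq (GRCh38.p14), each running from 250 bases before the annotated 5′ end to 50 bases from it into the gene. Promoters of 4 genes are shown because the treated library covered the whole promoter window of B2M and TAPBP, whereas neither library had a peak over that of HLA-B or HLA-C. Capitals mark matches, on either strand, to 3 patterns: the interferon-stimulated response pattern (GAAA, any 2 bases, GAAA), the NF-Y box CCAAT, and the CRE core TGACG.
B2M (chr15:44711267-44711566, plus strand): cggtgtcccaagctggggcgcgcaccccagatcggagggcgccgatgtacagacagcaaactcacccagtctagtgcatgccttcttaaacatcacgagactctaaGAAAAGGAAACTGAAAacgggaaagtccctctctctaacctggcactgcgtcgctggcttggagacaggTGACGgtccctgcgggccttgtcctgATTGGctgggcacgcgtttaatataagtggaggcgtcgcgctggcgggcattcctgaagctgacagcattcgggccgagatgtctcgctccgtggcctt
TAPBP (chr6:33314029-33314328, minus strand): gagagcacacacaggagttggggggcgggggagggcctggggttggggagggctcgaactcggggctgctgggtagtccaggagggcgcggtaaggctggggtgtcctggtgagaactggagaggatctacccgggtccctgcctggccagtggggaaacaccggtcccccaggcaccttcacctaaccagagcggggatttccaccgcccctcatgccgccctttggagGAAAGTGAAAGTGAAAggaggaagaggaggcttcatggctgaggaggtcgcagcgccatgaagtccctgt
HLA-B (chr6:31357130-31357429, minus strand): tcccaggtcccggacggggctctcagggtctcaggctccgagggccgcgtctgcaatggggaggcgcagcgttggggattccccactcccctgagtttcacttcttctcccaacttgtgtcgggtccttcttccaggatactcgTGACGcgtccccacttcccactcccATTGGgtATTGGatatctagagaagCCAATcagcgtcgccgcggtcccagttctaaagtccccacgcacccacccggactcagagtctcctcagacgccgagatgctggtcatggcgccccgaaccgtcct
HLA-C (chr6:31272043-31272342, minus strand): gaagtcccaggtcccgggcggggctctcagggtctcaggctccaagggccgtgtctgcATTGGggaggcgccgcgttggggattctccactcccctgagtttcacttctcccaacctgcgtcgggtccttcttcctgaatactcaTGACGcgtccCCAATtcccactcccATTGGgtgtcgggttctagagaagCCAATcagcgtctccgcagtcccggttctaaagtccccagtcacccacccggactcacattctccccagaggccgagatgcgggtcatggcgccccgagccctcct

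The first 2 promoters each carried 2 overlapping matches to the interferon pattern, at −144 to −129 in B2M and at −20 to −5 in TAPBP, counting the first base of the gene as 0. HLA-B and HLA-C had no exact match to this string in these 300 bases, and looser forms of it were not searched. The pattern was present in 5 of the 7 promoters (HLA-F, B2M, TAP1, TAP2 and TAPBP), against 3.57% of all 35116 promoters of the table. CCAAT was found in 5 of 7 (all but TAP2 and TAPBP), against 34.6% of all promoters, and TGACG in 4 of 7 (HLA-B, HLA-C, B2M and TAP2), against 24.6%. A loose NF-kB pattern (GGG, any 5 bases, CC, not capitalised above) was found in 6 of 7, against 58.7%, and in HLA-C it shared 1 base with a CCAAT match. These are letter matches in a window and say nothing on the binding of a factor.

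The promoters of HLA-B and HLA-C were identical at 88.5% of aligned positions, and HLA-F shared 79.7% with HLA-B and 78.9% with HLA-C. All other pairs among the 7 promoters ranged from 48.2% to 52.3%. How reads that map to several places were handled is not given in the sources used here, so the placement of peaks among the HLA heavy-chain genes is uncertain. Leaving the HLA genes out, the members without a close class I paralogue (B2M, TAP1, TAP2, TAPBP and NLRC5) kept 17.7% of the control-covered length and 16.3% of the control peaks, where all members together kept 16.1% and 14.7%. Within 1 kb of 5′ ends they kept 4142 of 9405 bp, and all members together 4142 of 11942 bp. The kept share is the part of the control-covered length, or of the control peaks, also covered after treatment.

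The control list held 245875 peaks over 224 Mb and the SNDX-50469 list 54061 peaks over 29.4 Mb. Each list also had its own cutoff: the smallest −log10 p was 2.68 in control and 3.93 after SNDX-50469. No read totals were given, so depth is unknown, and a lower mark and a stricter cutoff cannot be told apart here. All 5 myeloid markers examined (SPI1, CD33, CEBPA, LYZ and MPO) had a control peak at the 5′ end and peaks in both lists. Among markers of other cell types, CD3E had control peaks and none after treatment, and EPCAM and HBB had none in either list.

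Of the 9 genes, 8 had a control peak within the gene or 5 kb on either side, against 78.0% of all protein-coding genes. HLA-F was the exception, with no peak in either list. All 8 were covered less after SNDX-50469, where 98.1% of all genes with a control peak were, and all 8 at least 2-fold less, where 93.7% of all genes were. This direction held with the lists as deposited, and once the weakest control peaks were removed until both lists covered the same length, HLA-E, TAP1 and TAP2 had no control peak left and were covered only after treatment, and none of the genes was 2-fold lower. That trimming held control peaks to a −log10 p of 10.0 and treated peaks to 3.93. With both lists held to 3.93, all 8 genes stayed at least 2-fold lower, with 8077 and 882 bp in HLA-E, 8051 and 2526 bp in TAP1, and 4875 and 1271 bp in TAP2. Coverage was absent after treatment over 2 of the 8, HLA-B and HLA-C, against 35.6% of all genes with a control peak. On chromosome 6, where all of the 8 but B2M and NLRC5 lie, 890 genes had a control peak. Of those 890, 834 were covered less, 760 at least 2-fold less, and 102 had no coverage after treatment. The direction and the 2-fold count are thus close to those of the whole gene list. What distinguished the members from each other was how much of the control coverage was also covered after treatment, the kept share.

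**Figure D1:**
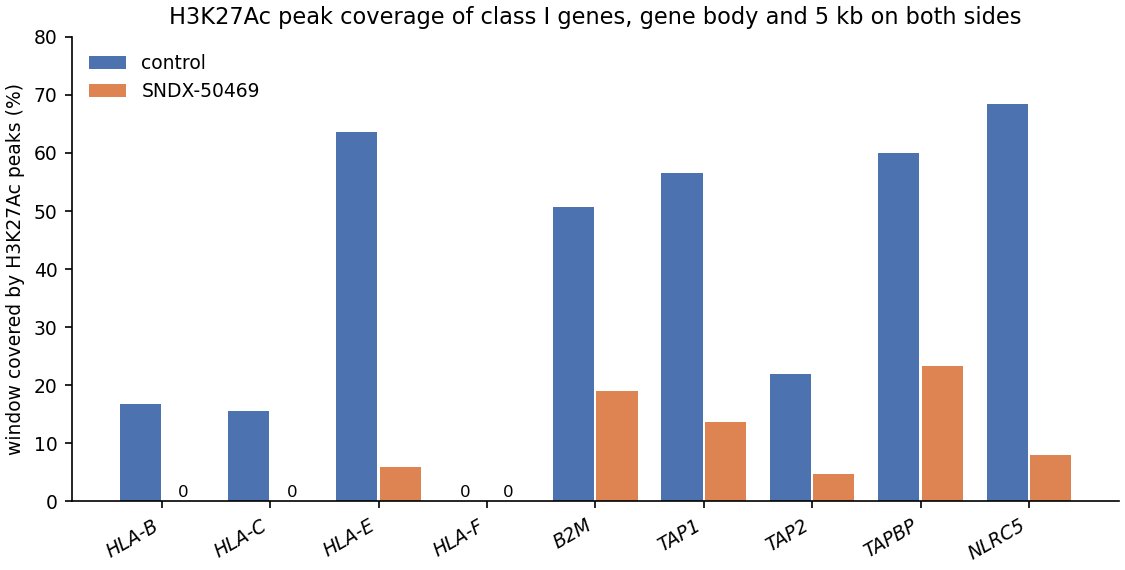
Bars give the percent of each gene with 5 kb on both sides that lay under H3K27Ac peaks in the control library and in the SNDX-50469 library, 1 library each. Control coverage ran from 15.6% (HLA-C) to 68.4% (NLRC5) in the 8 genes with a peak, HLA-F had none, and with the lists as deposited the treated library was lower over all 8, reaching 23.3% at most (TAPBP), though HLA-E, TAP1 and TAP2 turned the other way once the control list was trimmed to the same covered length, at a stricter p than the treated list.

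The kept share had a median of 15.8% over the 8 genes and ran from 0% in HLA-B and HLA-C to 37.5% in B2M. The median over all 15634 genes with a control peak was 2.37%, and over those of chromosome 6 it was 6.29%. Counting each position once, the 8 windows held 121389 bp under control peaks, 20759 bp under SNDX-50469 peaks and 19582 bp under both. That was a kept share of 16.1%, where the whole control list, which includes peaks outside gene windows, had 9.71%. Summed gene by gene over gene and 5 kb, the members kept 16.6% and all protein-coding genes 11.6%. On that sum the genes of chromosome 6 kept 13.98% and the 22 other pathway genes described below 14.1%. These differences were not tested. With only peaks at a −log10 q of 5 or more in both lists, the order of members and whole list turned. The members then kept 4.14% against 6.47% in the whole list. The member windows then held only 1 treated peak. With the lists as deposited, NLRC5, the longest of the genes, held 58.6% of the 121389 bp under control peaks, and without it the kept share was 22.6%.

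**Figure D2:**
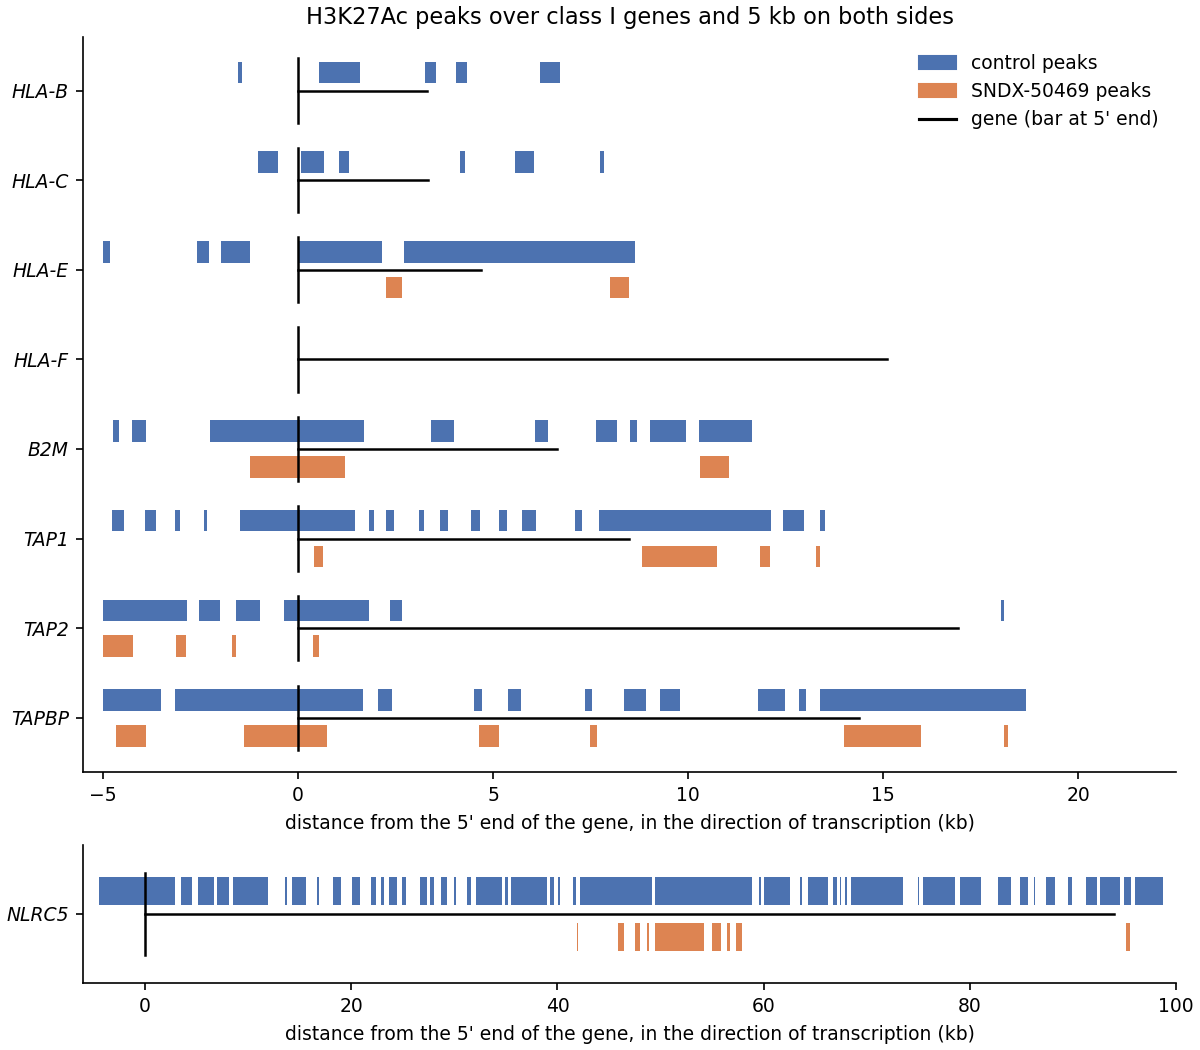
Peaks of both libraries are drawn to scale for each gene with its 5 kb flanks, against the distance in kb from the annotated 5′ end in the direction of transcription, with NLRC5 on its own axis. SNDX-50469 peaks lay over the 5′ ends of B2M and TAPBP, covered small parts near those of TAP1 and TAP2, and in NLRC5 gathered between 41.9 and 57.9 kb into the gene, apart from 1 beyond its far end.

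Among the heavy chains, HLA-B (chr6:31353875-31357179, minus strand), a classical class I heavy chain, had 5 control peaks over 2235 bp and none after treatment. Its strongest control peak was 1045 bp long and lay from 540 to 1584 bp into the gene. In the control list 3.91% of the peaks had a higher −log10 p. HLA-C (chr6:31268749-31272092, minus strand), the neighbouring classical heavy chain and also a ligand of killer-cell receptors, had 6 control peaks over 2078 bp and likewise none after treatment. Its strongest control peak, 595 bp from 67 to 661 bp into the gene, had 5.24% of the control list above it. With 0 of 5 and 0 of 6 peaks kept, the 95% Wilson intervals reached 43.4% and 39.0%, and these intervals cover counting error only.

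HLA-E (chr6:30489509-30494194, plus strand), the heavy chain that presents leader peptides to the NKG2A receptor of natural killer cells, was covered broadly in control, with 9332 bp in 5 peaks. After treatment 882 bp in 2 peaks were covered, 10.6-fold less, and the kept share was 5.14%. The control peak beside the start, 2155 bp from 7 to 2161 bp, was stronger than all but 2.37% of its list and had no SNDX-50469 peak over it. One treated peak of 402 bp lay from 2265 to 2666 bp, in the gap between 2 control peaks, and the other, 480 bp, lay over 8 kb from the 5′ end, beyond the gene. HLA-F (chr6:29723434-29738532, plus strand), a non-classical heavy chain, had no peak within 5 kb in either list.

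B2M (chr15:44711517-44718145, plus strand) had the highest kept share with the lists as deposited. The order of the genes changed with the threshold: at a −log10 q of 5 or more in both lists B2M and TAPBP kept 0%, TAP1 43.6% and TAP2 35.3%. Both TAP values came from the same treated peak, the only 1 at that threshold in the member windows. That peak lay mostly over PSMB8, outside TAP1 and TAP2 themselves. With the control list trimmed to equal covered length NLRC5 kept 70.5% and B2M 61.7%. In the B2M window 8430 bp lay under 9 peaks in control. After SNDX-50469 3161 bp lay under 2 peaks, all of it within control peaks, which was 2.67-fold less and a kept share of 37.5%. The strongest control peak spanned the 5′ end from −2245 to 1685 bp, and only 0.643% of the control list had a higher −log10 p. The treated peak at the same place ran from −1227 to 1199 bp and was shorter on both sides, with 2.69% of its own list above it. The divergent gene PATL2 starts 127 bp from the 5′ end of B2M, and the 1 kb on both sides of its 5′ end was also kept whole. Over PATL2 lay 34.8% of the kept length of the B2M window, so acetylation of the pair at this shared stretch cannot be told apart.

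The transporter genes TAP1 and TAP2 lie next to each other, with the immunoproteasome genes PSMB8 between them and PSMB9 beyond, and their windows overlapped by 3531 bp. TAP1 (chr6:32845209-32853704, minus strand) had 10454 bp in 16 control peaks and 2526 bp in 4 SNDX-50469 peaks, 4.14-fold less, and kept 23.3%. TAP2 (chr6:32821831-32838739, minus strand) had 5906 bp in 6 control peaks and 1271 bp in 4 treated peaks, 4.65-fold less, and kept 20.0%. Most of what the transporter genes kept was not over them: 80.5% of the kept length of the TAP1 window and 86.5% of that of TAP2 lay over PSMB8, a catalytic immunoproteasome subunit. There, a treated peak of 1923 bp (chr6:32842977-32844899) was the strongest of all SNDX-50469 peaks in the member windows, with 1.33% of its list above it, inside a control peak of 4407 bp with 1.73% of the control list above it.

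Within the TAP genes themselves, the control peak over the 5′ end of TAP1 was 2932 bp long and a treated peak of 241 bp lay in it, from 404 to 644 bp into the gene. TAP2 had a control peak of 2187 bp over its 5′ end and a treated peak of 146 bp, from 382 to 527 bp. These treated peaks were among the weaker of their list, with 70.9% and 76.7% of the SNDX-50469 peaks above them.

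TAPBP (chr6:33299694-33314078, minus strand) had 14647 bp in 11 control peaks and 5692 bp in 6 SNDX-50469 peaks, 2.57-fold less, and kept 34.9%. The treated peak over its 5′ end was 2143 bp long, from −1389 to 753 bp, with 3.39% of its list above it, and lay inside a control peak of 4836 bp with 1.24% of the control list above it. A separate control peak of 5282 bp at the far end of the gene, with 0.302% of the control list above it, was the strongest control peak of the 9 genes, and 39.7% of its length was kept. This peak lay wholly inside RGL2, which overlaps the far end of TAPBP, and only part of it lay in TAPBP. RGL2 held 41.0% of the kept length of the TAPBP window, and the upstream neighbours ZBTB22 and DAXX held 20.5% and 3.75%.

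NLRC5 (chr16:56989557-57083520, plus strand) was covered in control over 68.4% of its window, 71124 bp in 47 peaks. After treatment 8352 bp in 9 peaks were covered, 8.52-fold less, and 11.6% was kept. The control peak over its 5′ end was 7364 bp long, from −4489 to 2874 bp, with 3.87% of the control list above it, and no treated peak lay over it. The strongest NLRC5 peak lay instead deep inside the gene, from 49.4 to 58.9 kb (chr16:57039001-57048410). It was 9410 bp long with 0.362% of the control list above it, and 70.5% of it was kept, most of it by a treated peak of 4793 bp with 3.94% of its list above it. Whether this stretch is exonic or intronic is not given here, since no exon annotation of the build was used.

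**Figure D3:**
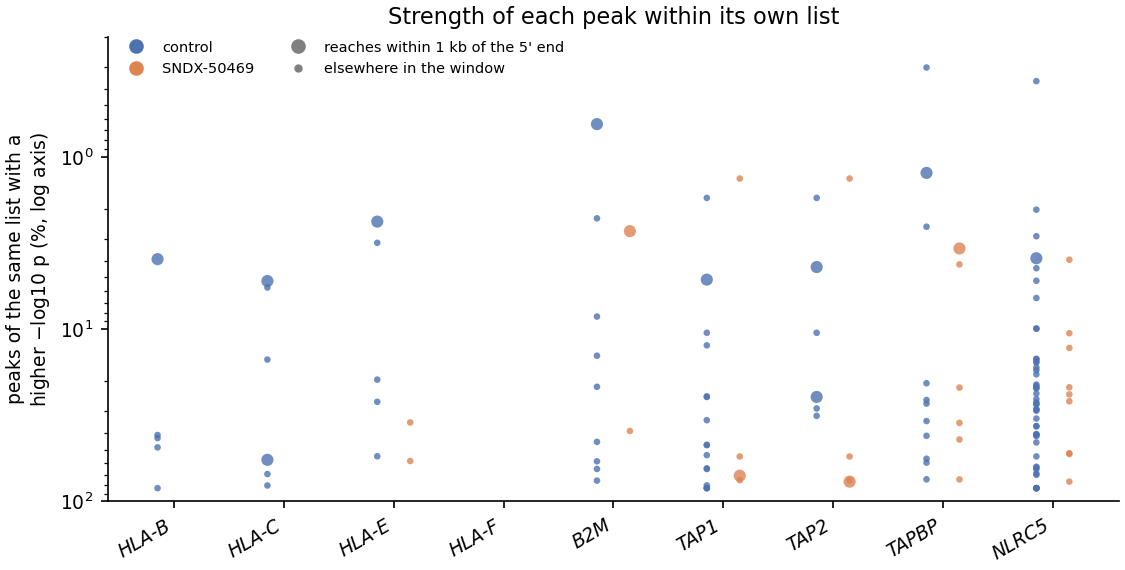
Each point is a peak, placed by the percent of peaks of its own list with a higher −log10 p (log axis, stronger peaks at the top), and large points reach within 1 kb of the 5′ end. Values are ranks within a list and are not levels to compare between lists. The 5′ peak of B2M had 0.643% of the control list above it and 2.69% of the SNDX-50469 list, while the large points of HLA-B, HLA-C, HLA-E and NLRC5 occur in control but not after treatment.

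The 5′ ends divided the genes more sharply than the whole windows did. A control peak reached within 1 kb of the 5′ end in 8 of 9 genes, against 59.9% of all genes with a known strand, and an SNDX-50469 peak in 4 of 9 (B2M, TAP1, TAP2 and TAPBP), against 30.3%. Some of the control-covered length was kept there in 4 of the 8 genes, against 49.3% of all genes with a control peak there and 62.9% of those on chromosome 6. B2M kept all 2001 bp, which 5.29% of such genes did, and TAPBP kept 1754 of 2001 bp, or 87.7%. More than 80% was kept in 2 of the 8, against 12.6%. TAP1 kept 12.0% and TAP2 10.4%. None of these treated 5′ peaks reached a −log10 q of 5, and at that threshold in both lists 0 genes had one.

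The other 4 genes kept nothing within 1 kb of the 5′ end. Control peaks covered 461 bp there in HLA-B, 1082 bp in HLA-C and 994 bp in HLA-E, and the full 2001 bp in NLRC5. Of the 4 genes whose 2001 bp were wholly covered in control (B2M, TAP1, TAPBP and NLRC5), 1 had no treated coverage there, and 18.7% of all such genes had none. The limits of more than 80%, of all and of whole coverage were chosen after the values were seen.

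**Figure D4:**
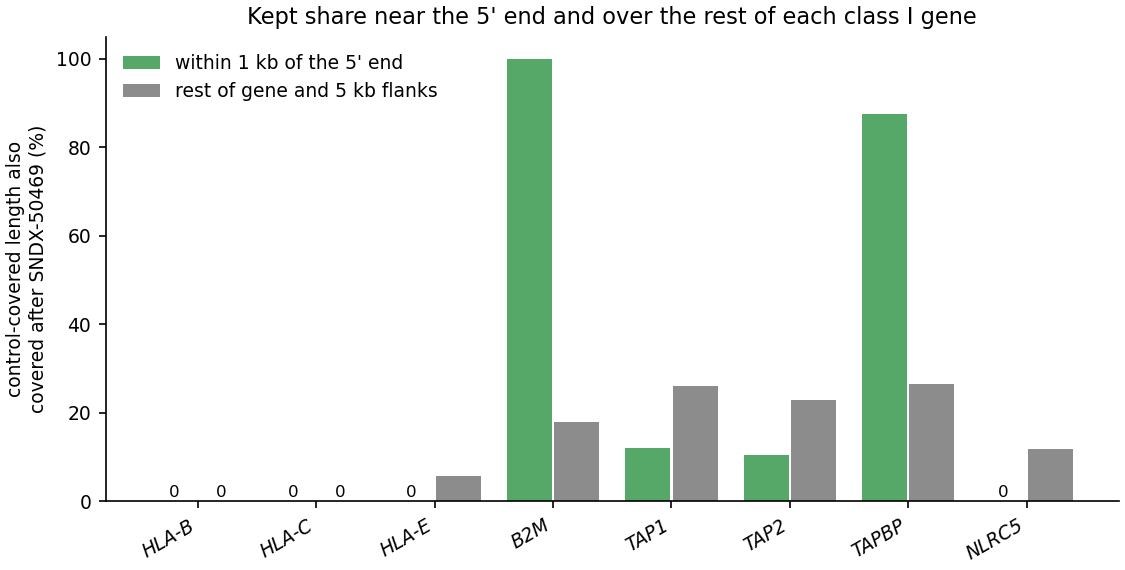
Bars give, for each gene with a control peak, the percent of control-covered length also covered after SNDX-50469, within 1 kb of the 5′ end and over the rest of the gene and 5 kb flanks. B2M (100% and 18.0%) and TAPBP (87.7% and 26.6%) kept more at the 5′ end than elsewhere, whereas TAP1 (12.0% and 26.0%), TAP2 (10.4% and 23.0%), NLRC5 (0% and 11.9%) and HLA-E (0% and 5.76%) kept more elsewhere.

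Summed over the genes, 34.7% of the control-covered length within 1 kb of a 5′ end was kept, and the same sum over all genes was 34.2%. Between 1 and 5 kb from the 5′ end the members kept 9.65% and all genes 13.9%, and farther away 16.3% and 7.88%. These sums were taken gene by gene, so the stretch shared by the TAP1 and TAP2 windows (2817 bp in control, 1036 bp kept) entered for both genes. Part of the length kept farther away lay over the neighbours PSMB8 and RGL2. The sum at the 5′ ends was thus close to that of all genes and below the 46.2% of chromosome 6 genes. The median kept share there was 5.21% in the members, 26.7% on chromosome 6 and 0% over all genes. The members' sum joined B2M and TAPBP with TAP1, TAP2 and 4 genes at 0%.

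By peaks, 15 of the 102 control peaks of the member windows were kept (14.7%, Wilson 95% interval 9.12% to 22.9%). Of the whole control list, which includes peaks outside gene windows, 8.24% were kept. Of the 102 peaks, 47 lay in the NLRC5 window, where 3 were kept. The interval takes neighbouring peaks of the same gene as independent, so it is likely too narrow to judge this difference. Of control peaks at a −log10 q of 5 or more, 10 of 11 were kept (90.9%, 62.3% to 98.4%), against 77.9% of such peaks in the list. The peak at the start of HLA-E was the exception. Of the weaker peaks 5 of 91 were kept (5.49%, 2.37% to 12.2%), against 5.51%. These 5 were the 5′ peaks of TAP1 and TAP2, a peak of 633 bp upstream of TAP2 touched over 14 bp, and 2 short peaks inside TAPBP. Wide peaks of at least 2 kb were kept in 11 of 21 cases (52.4%), against 44.1% in the list, and narrower ones in 4 of 81 (4.94%), against 4.31%. The peaks of HLA-B and HLA-C were all narrower than 2 kb and all below a −log10 q of 5, and the strength or width of peaks moved with keeping in the members and in the list alike. Of 24 treated peaks, 22 overlapped a control peak, and the other 2 were the peak of 402 bp in HLA-E and one of 109 bp in NLRC5.

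Genes with little control coverage mostly kept nothing: of the 4306 genes with up to 2.5 kb covered, the class of HLA-B and HLA-C, 87.2% had a kept share of 0. Among genes with 5 to 10 kb the median was 7.54% and the upper quartile 21.1%, so that HLA-E (5.14%) was below the median, TAP2 (20.0%) below the upper quartile and B2M (37.5%) above it. Among genes with 10 to 20 kb the median was 9.25% and the upper quartile 20.8%, and TAP1 (23.3%) and TAPBP (34.9%) were above both. NLRC5 (11.6%) lay between the median of 6.94% and the upper quartile of 14.3% of genes with over 20 kb.

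**Figure D5:**
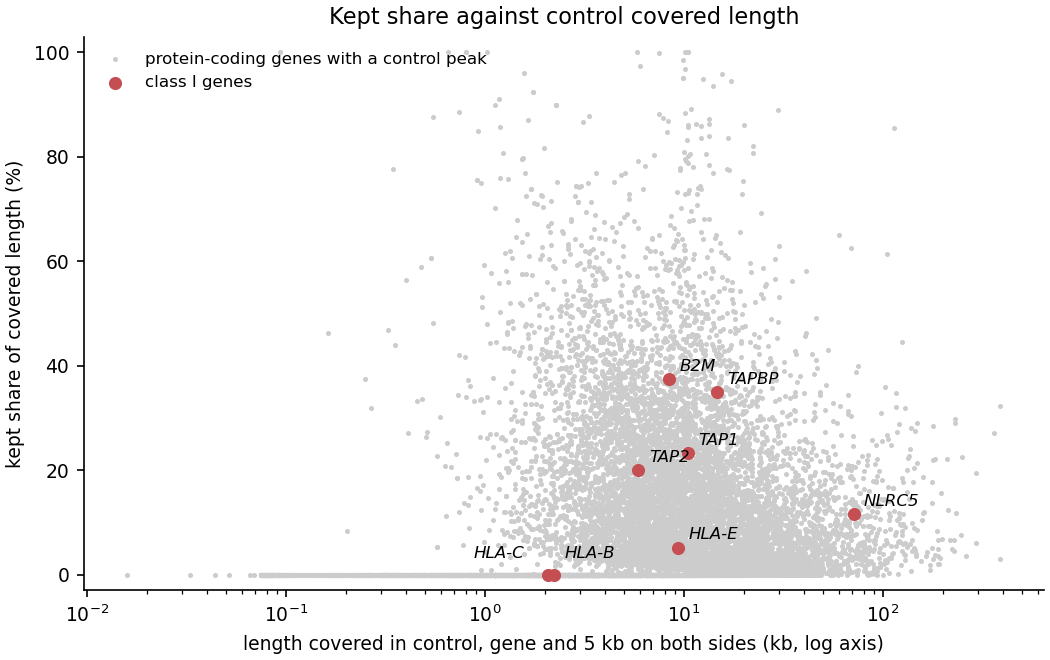
Each point is a protein-coding gene with a control peak (grey) or a class I gene (red), by its control-covered length with 5 kb flanks (kb, log axis) and the percent of it also covered after SNDX-50469. With the lists as deposited B2M at 37.5% and TAPBP at 34.9% were the highest of the class I genes. That order changed at a −log10 q of 5 or more (TAP1 highest at 43.6%, from 1 treated peak mostly over PSMB8). It also changed with the trimmed control list (NLRC5 highest at 70.5%). HLA-B and HLA-C sat at 0% with about 2 kb of control coverage.

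The other genes of the pathway were taken from a list of 22, comprising immunoproteasome subunits and activators, trimming peptidases, chaperones and transcription factors of class I genes. All 22 had control peaks and were covered less after treatment, 21 of them at least 2-fold. Of all genes with a control peak, 98.1% were covered less and 93.7% at least 2-fold less. Their median kept share was 12.5%, and the 8 class I genes had 15.8%. Near the 5′ end, all 22 had a control peak and 17 had an SNDX-50469 peak, against 30.3% of all genes with a known strand. Some control-covered length was kept there in 77.3% of the 22. That share was 49.3% of all genes with a control peak there and 62.9% of those on chromosome 6. The median kept share there over the 22 was 51.2%. Of the class I genes, 4 of 9 had a treated peak there, with a median of 5.21% over the 8 with a control peak there. The difference between these lists was not tested.

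The highest kept shares of that list belonged to CALR, the chaperone calreticulin of the loading complex (62.2%), ATF1, a factor that binds the CRE (46.0%), PSMB10, an immunoproteasome subunit (36.4%), and NFYA, a subunit of the factor that binds CCAAT (34.2%). CALR, with 13.7 kb in control and 9.19 kb after treatment, was the gene not 2-fold lower. Among genes with at least 2 kb of control coverage, the lowest were ERAP2, a peptidase that trims peptides in the endoplasmic reticulum, at 0% of 18.1 kb, PSME2, a subunit of the PA28 proteasome activator, at 0% of 7.74 kb, RFXAP, an RFX subunit, at 0% of 2.50 kb, and PSME1, the partner of PSME2, which was covered over 9.15 kb in control and 0.265 kb after treatment. PSMB8 kept 25.9%, and 61.0% within 1 kb of its 5′ end. PSMB9, whose 5′ end faces that of TAP1 at a distance of 488 bp, kept 4.58%, and 5.47% within 1 kb.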

How the data were processed

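H3K27Ac was measured by ChIPmentation in MOLM13, 1 control and 1 SNDX-50469 library, grouped from their labels. The submitters' processing notes name Trim Galore 0.6.5, Bowtie2 2.3.4.2, Picard 2.9.0, MACS2 2.1.2 and GRCh38, while the supplementary methods name TopHat2 and hg38. Peak-caller options, the use of input and the handling of reads with several placements are not given in the sources used here. Each library has its own list of broad peaks as deposited by the authors. For each peak the deposited lists give a ratio (fold over background), a −log10 p, a −log10 q and a score. These values are relative to the background of each library, so between lists positions were compared, and strength is given as a rank within a list. The score was not used.

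Genes were the 20037 protein-coding genes of GRCh38.p14 (RefSeq), of which 19675 had a strand, taken from the promoter table or by symbol from an annotation of an older build, with no coordinate of that build used. Windows were the gene with 5 kb on both sides and 1 kb on both sides of the 5′ end. Control peaks overlapping the SNDX-50469 list by 1 bp or more were counted as kept, and the kept share is the length under both lists as percent of the control length. Python 3.11.15 with numpy 2.4.6, pandas 2.3.3, scipy 1.17.1 and matplotlib 3.10.9 was used. The interval arithmetic was tested on simulated data. Wilson 95% intervals cover counting error only. PCR copies, the grouping of neighbouring peaks within a gene and the absence of replicates add error they do not include. The lists hold no read totals, so the depth of each library is unknown.

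The 9 genes and the compared lists were chosen with earlier results of these data known. One marker gene of the cell type check is not reported here. All 9 genes are described, and of the 22 other pathway genes the 4 highest and the 4 lowest kept shares with at least 2 kb of control coverage, plus PSMB8 and PSMB9. Promoters were compared by global alignment and searched for 4 patterns on both strands. HLA-E and NLRC5 had no promoter entry in the table used. Alternatives were other peak thresholds, windows, overlaps and gene sets.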

Additional observations from a re-analysis of the deposited data

How the results depend on the processing

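No paired analysis was possible because there was 1 library for each condition. After seeing the data, 2 alternatives were added, leaving out positions inside other protein-coding genes and leaving out NLRC5. The whole-list shares given here include peaks outside gene windows. A −log10 q of at least 5 in both lists gave a kept share of 4.14% of length (6.47% in the whole list), 9.09% of peaks (1 of 11) and 0% within 1 kb of 5′ ends, with 0 genes having a treated 5′ peak. Cutting the control list at the lowest −log10 p found after SNDX-50469 left 45451 control peaks and gave 35.3% of peaks kept (12 of 34), with the share of length at 23.0% (15.5% in the whole list) and the 8 genes still at least 2-fold lower. Trimming the control list to the covered length of the SNDX-50469 list left 3633 control peaks, with 56.7% of length (38.8% in the whole list), 100% of peaks (4 of 4) and 93.8% within 1 kb kept, and 0 genes at least 2-fold lower. In that trimmed list control minus SNDX-50469 length turned negative in HLA-E (-882 bp), TAP1 (-2526 bp) and TAP2 (-1271 bp), which then had no control peak. This setting evens out the total length by construction, with control held to a −log10 p of 10.0 and treated peaks to 3.93. With both at 3.93 these genes stayed lower, but the control list then still covered 129 Mb against 29.4 Mb. B2M, TAPBP and NLRC5 kept the direction, by 770, 4426 and 1058 bp, and HLA-B and HLA-C had no peak in either list. At least 50% overlap gave 2.94% of peaks kept. Members outside chromosome 6 (B2M and NLRC5) had 8.93% of peaks kept, 1 gene with a treated 5′ peak and 2 genes at least 2-fold lower, and the 5 members with no close class I paralogue were all at least 2-fold lower. Those last counts are smaller because fewer genes were taken. Without positions inside other genes the kept share of length was 12.7%, and without NLRC5 the share within 1 kb was 41.7%. The depth of the libraries is unknown and limits all differences between the lists.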

Other observations

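Class II presentation genes, which serve peptides to CD4+ T cells, were looked at beside the class I genes. Of 13 such genes, 8 had a control peak, against 78.0% of all protein-coding genes. Of those 8, 7 were at least 2-fold lower after SNDX-50469, against 93.7% of all genes with a control peak. Their median kept share was 0%, against 2.37%. HLA-DRA, HLA-DQB1, HLA-DPB1 and HLA-DOB had under 2.5 kb of control coverage, a class where 87.2% of all genes kept 0%. HLA-DQA1, HLA-DPA1 and HLA-DOA had no control peak, and 271, 288 and 110 bp after treatment. HLA-DMB and HLA-DMA, which form the chaperone that loads class II peptides, kept 27.9% of 12.0 kb and 14.7% of 9.24 kb. CD74, the invariant chain, kept 0% of 7.19 kb and had 2001 bp of control coverage within 1 kb of its 5′ end and none after treatment. CIITA, the class II transactivator and relative of NLRC5, kept 3.01% of 45.1 kb and nothing within 1 kb of its 5′ end, where control covered 1467 bp. HLA-DRA, an alpha chain that presents peptides, had 1.40 kb of control coverage and none after treatment. The genes named here were chosen after their values were seen, and no difference between the class I and class II genes was tested.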
